A study of Mus musculus with 6 samples.

Results

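The genes described are 10 members of the fibroblast growth factor (FGF) pathway, namely the receptor genes Fgfr1, Fgfr2 and Fgfr3, the ligand genes Fgf2 and Fgf7, and the feedback genes Spry1, Spry2, Spry4, Spred1 and Dusp6. Their members in the data were all regions of acetylated histone H3 (H3ac) that overlapped the annotated body of one of these genes extended by 5 kb on both sides, and 76 of 24431 regions met this rule. All 10 genes had at least 1 region, so that 0 of 10 were without H3ac signal in the table. The regions came from CUT&RUN, an assay in which a nuclease is tethered to an antibody so that the DNA carrying the bound mark is cut out and sequenced. It was applied to 6 cultures of mouse bone mesenchymal stem cells (MSCs) grown at 2% oxygen, 2 each of cells from mice of 3 to 5 months without treatment (Young), from mice of 18 to 22 months without treatment (Old), and from mice of 18 to 22 months whose cells received 5 mM sodium acetate for 3 days (OldAcetate). The labels number the replicates but do not say whether these came from separate mice, so that all p-values measure only the spread between these cultures.

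FGFs are secreted proteins that bind receptor tyrosine kinases at the cell surface together with heparan sulphate, and the activated receptors signal through adaptor proteins to Ras and the ERK kinase cascade. ERK activity switches on genes whose products then restrain the same pathway, among them the Sprouty and Spred proteins, which act on the steps around Ras and Raf, and Dusp6, a phosphatase that removes the activating phosphates of ERK. In the skeleton, FGF signalling is known for its part in the growth of bone and in the proliferation of stromal progenitor cells.

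The values were treated as RPM, the reads of a region relative to a read total of its library. Each could be turned back into whole reads. The read total was inferred from the step of which all values of a library were whole multiples. Which reads it includes is not given in the sources used here. The inferred totals were 2163351 to 3039481 reads. Relative to these, 45.9% and 49.9% lay in the regions in the Old cultures, against 56.3% to 64.8% in the other 4. With values as given, the median region was lower in Old than in Young by a log2 fold change of -0.35, was 0.24 higher in OldAcetate than in Old, and differed by -0.11 between OldAcetate and Young. Whether this shared shift reflects the cells or the yield of the assay cannot be told apart in these data, since it moved with the groups. Changes were accordingly tested after subtracting each library's median deviation (called scaled below), which measures a region relative to all other regions, and the values as given stand beside them. In bulk cultures, fewer cells with the mark and less of the mark per cell cannot be told apart. All 8 MSC marker genes (Pdgfra, Ly6a, Eng, Thy1, Nt5e, Cd44, Itgb1 and Vcam1) carried a region over a start site, at mean densities of 1.88 to 3.26 RPM per kb. Of 8 haematopoietic markers, 2 did, Csf1r among them, and Ptprc, Cd3e, Itgam and Adgre1 had no region at all. None of the 4 endothelial markers had one over a start site.

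The count of 76 was set by a single gene. Of 27 annotated Fgfr2 transcripts, 1 with the lowest annotation support (support level 5) stretches the gene body to 2960.9 kb, and 62 regions fell under it. The transcripts of the best support (level 1) span 103.8 kb and took 4 regions, and 42 of the other 58 lay over the bodies of other coding genes, 22 in number, such as Tacc2, Htra1 and Ctbp2. The account below therefore centres on the 18 regions that overlapped bodies drawn from support level 1, a choice made after the regions were seen, and gives the 58 separately. These 18 regions covered 284 kb. Fgfr2 and Fgf2 had 4 regions each, Fgf7 and Spred1 had 2 each, and Fgfr1, Fgfr3, Spry1, Spry2, Spry4 and Dusp6 had 1 each.

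Every gene had a region over an annotated start site, whereas 55.4% of 21938 coding genes did. Each of these 10 start-site regions overlapped an exon of its gene, as a region that holds a transcript start must. Each carried the code AC+O+Y in the table, read here as called in all 3 groups, as did 80.6% of all regions. The promoter sequences of a few members are shown because they include the highest and lowest H3ac densities of the start-site regions and differ widely in CpG content. Reference promoters (RefSeq, build GRCm38.p6, 250 bases before the start) were matched for 8 of the 10 genes in 9 windows, all 9 of which lay inside the start-site regions. Printed 5′ to 3′ along the gene, with CpG dinucleotides in capitals, they are Spry2 (chr14:105896820-105897069, minus strand), Dusp6 (chr10:99262981-99263230, plus strand), Fgf7 (chr2:126034408-126034657, plus strand) and Spred1 (chr2:117120821-117121070, plus strand):
Spry2: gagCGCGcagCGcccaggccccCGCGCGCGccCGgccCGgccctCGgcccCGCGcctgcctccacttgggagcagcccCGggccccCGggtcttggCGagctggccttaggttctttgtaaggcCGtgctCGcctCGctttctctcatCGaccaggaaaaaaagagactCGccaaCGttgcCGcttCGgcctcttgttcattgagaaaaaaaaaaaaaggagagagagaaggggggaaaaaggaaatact
Dusp6: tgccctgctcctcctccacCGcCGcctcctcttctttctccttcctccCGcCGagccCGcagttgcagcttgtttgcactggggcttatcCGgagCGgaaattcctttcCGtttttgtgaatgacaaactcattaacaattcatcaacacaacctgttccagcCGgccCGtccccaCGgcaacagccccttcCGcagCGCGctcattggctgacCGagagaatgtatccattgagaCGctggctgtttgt
Fgf7: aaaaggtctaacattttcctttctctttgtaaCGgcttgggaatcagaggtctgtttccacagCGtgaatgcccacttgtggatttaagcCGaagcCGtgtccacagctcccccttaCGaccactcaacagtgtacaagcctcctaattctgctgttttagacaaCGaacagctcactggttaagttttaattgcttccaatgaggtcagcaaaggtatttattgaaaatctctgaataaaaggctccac
Spred1: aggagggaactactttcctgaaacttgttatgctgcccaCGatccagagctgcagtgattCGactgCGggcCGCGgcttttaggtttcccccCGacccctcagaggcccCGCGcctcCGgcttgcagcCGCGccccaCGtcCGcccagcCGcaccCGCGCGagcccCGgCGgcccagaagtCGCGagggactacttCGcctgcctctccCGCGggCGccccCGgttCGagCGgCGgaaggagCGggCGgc
The windows differed strongly in base composition. Spred1 held 31 CpG dinucleotides, Spry2 23, Dusp6 16 and Fgf7 6, beside a median of 6 over 32851 windows of the same length, and GC content was 70.8%, 62.4%, 56.4% and 43.6% respectively, beside a median of 52.4%. The highest CpG count thus stood at the gene with the lowest H3ac density (Spred1) and the next highest of the printed windows at the gene with the highest density (Spry2). Density is RPM divided by region length and so averages over the whole region. The Spred1 region was the longest of the 10 (41.5 kb) and held a mean of 82.4 RPM, and the level at the window itself was not measured. Searched on both strands, the Sp/KLF motif GGGCGG occurred in windows of Fgfr3, Fgf2, Spry1 and Spred1, and in 32.7% of all windows. The windows of Fgfr3, Fgf2 and Spry1 lay wholly in annotated exons (250 of 250 bases) and were not printed, whereas that of Spred1 held 0 exonic bases. In none of the 9 windows did the ETS motif CCGGAAG, the AP-1 motif TGANTCA, the cyclic AMP response element TGACGTCA, the TATA box TATAAA or the CArG box occur, which were present in 6.91%, 6.75%, 1.55%, 12.4% and 1.47% of all windows.

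**Figure D1:**
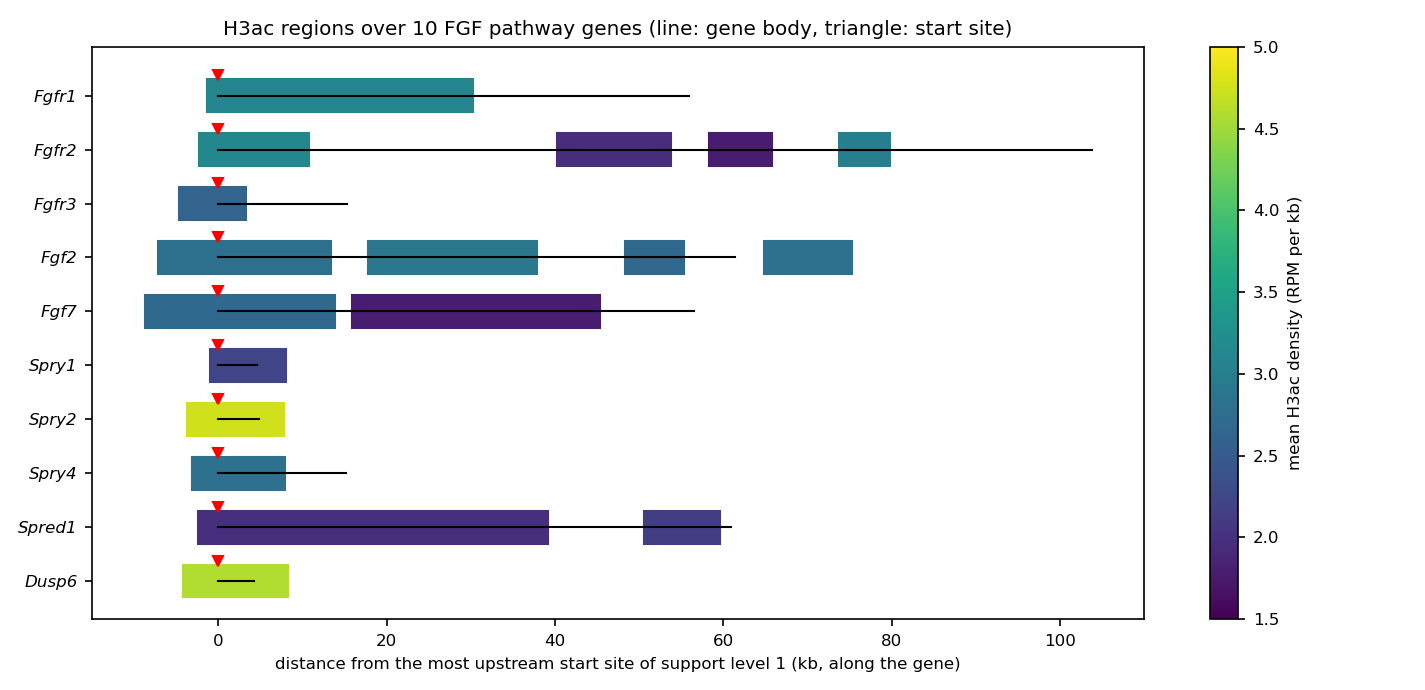
H3ac regions (coloured bars, mean density in RPM per kb over 6 libraries) along 10 FGF pathway genes, with distance from the start site in kb on the x axis, the support level 1 gene body as a line and the start site as a triangle. The bars over Spry2 and Dusp6 are the brightest, and those of Fgfr1, Fgf2, Fgf7 and Spred1 are the 4 start-site bars of 20 kb or more.

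The start-site regions were long. They ranged from 8 to 41.5 kb with a median of 12.75 kb, whereas start-site regions of all coding genes had a median length of 6000 bp. In 4 of the 10 genes they reached 20 kb or more (Spred1 41.5 kb, Fgfr1 31.5 kb, Fgf7 22.5 kb and Fgf2 20.5 kb), as did 10.7% of those of all coding genes. In the compact feedback genes Spry1, Spry2 and Dusp6, a single region covered the whole gene and its flanks, whereas in Fgfr1 it ended in the gene body, 30.2 kb past the start.

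Compared per length, the feedback genes lay at both ends of the order. Spry2 had the highest mean density (4.74 RPM per kb, range over the libraries 4.55 to 4.97), followed by Dusp6 (4.58, range 3.25 to 5.34), and these values stood at the percentiles 96.9 and 95.8 of 12150 coding genes with a start-site region. The order of the other 8 was Fgfr2 (3.14), Fgfr1 (3.09), Spry4 (2.79), Fgf2 (2.78), Fgf7 (2.68), Fgfr3 (2.62), Spry1 (2.22) and Spred1 (1.99), with the median of all start-site regions at 3.06 RPM per kb. The receptors and ligands thus lay near or below the middle of the distribution (percentiles 22.9 to 54.1), and Spry1 and Spred1 near its lower end (6.3 and 1.8). Neighbours in this order were mostly not separated, since the library ranges of all neighbouring pairs overlapped. Within libraries, however, Dusp6 exceeded Fgfr2 in 6 of 6 and Fgfr3 exceeded Spry1 in 6 of 6, while Spry2 exceeded Dusp6 in 2 of 6. Those 2 were both Old cultures, in which the ratio of Spry2 to Dusp6 RPM was 1.12 and 1.31, against 0.85 to 0.89 in the other 4.

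**Figure D2:**
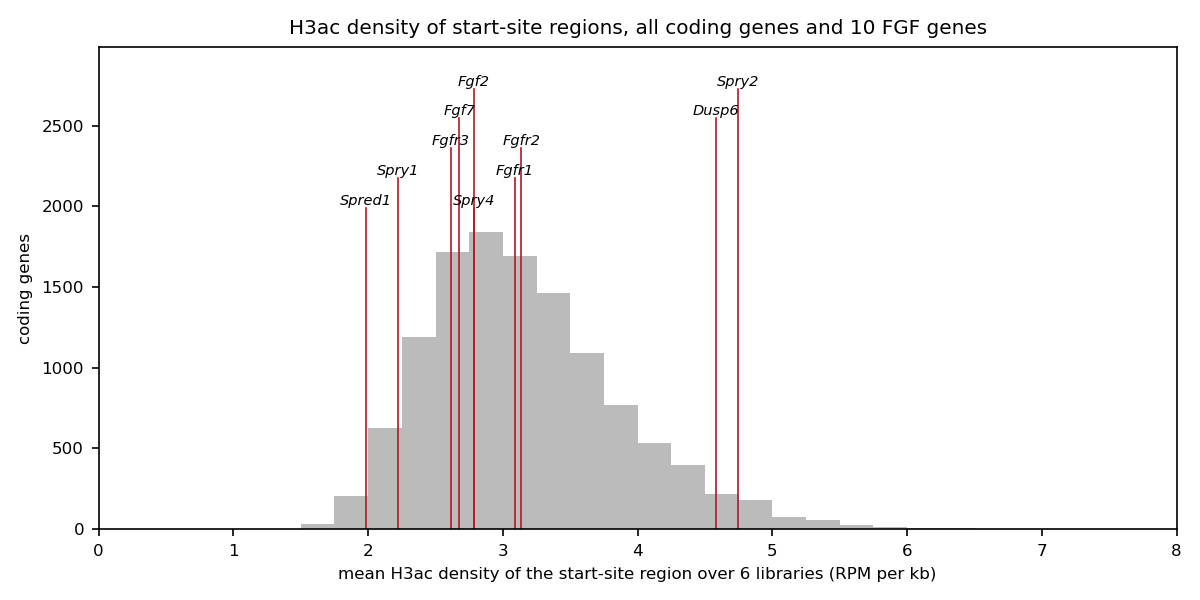
Number of coding genes (y axis, grey bars) by mean H3ac density of the start-site region over 6 libraries (x axis, RPM per kb), with the 10 FGF pathway genes as red lines. Spry2 (4.74) and Dusp6 (4.58) lie in the upper tail and Spred1 (1.99) in the lower one.

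The receptor genes are described first. Fgfr1, the main FGF receptor of mesenchymal cells, had its start-site region at chr8:25517501-25549000 (mm10), with 118.1 and 97.2 RPM in the Young cultures, 88.3 and 74.0 in the Old cultures and 104.8 and 100.9 with acetate. The Old cultures were the lowest and did not overlap either other group, whereas Young and OldAcetate overlapped. The Old mean was 75.4% of the Young mean, a scaled log2 fold change of -0.05 ± 0.10 (SE, limma adjusted p = 0.972). For OldAcetate against Old it was 0.11 ± 0.10 (adjusted p = 0.919).

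Fgfr2, the receptor of which one splice form binds Fgf7, had its start-site region at chr7:130255501-130268500, with 45.1 and 45.3 RPM in the Young cultures, 35.1 and 28.2 in the Old cultures and 49.1 and 41.7 with acetate. Again both Old cultures lay below the other 4. The Old mean was 70.1% of the Young mean and the OldAcetate mean was 143% of the Old mean, which after scaling were -0.16 ± 0.15 and 0.28 ± 0.15 (limma adjusted p = 0.941 and 0.824). The 3 further regions of Fgfr2 lay inside the gene, 40.3 to 79.8 kb past the start, and differed among themselves. The one farthest from the start held 20.4 and 20.0 RPM in the Young cultures, 16.6 and 12.7 in the Old cultures and 18.1 and 19.6 with acetate, with Old again below both groups. The region from 40.3 to 53.8 kb held 26.6 and 24.9 RPM in the Young cultures, 23.6 and 29.4 in the Old cultures and 25.2 and 27.5 with acetate, so that all groups overlapped, as they did in the region between them.

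Fgfr3, a receptor that restrains the growth of cartilage cells in the growth plate, had the shortest start-site region (chr5:33717001-33725000) with 20.4 and 24.5 RPM in the Young cultures, 15.7 and 19.9 in the Old cultures and 22.5 and 22.5 with acetate. Old lay below both other groups, but the gap between the highest Old and the lowest Young culture was small. As few as 34 reads stood behind a value here, for which counting error alone is 17.1%. The scaled log2 fold changes were 0.02 ± 0.21 for Old against Young and 0.10 ± 0.21 for OldAcetate against Old, both smaller than their SE.

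Among the ligands, Fgf2, a broad mitogen of mesenchymal cells, had its start-site region at chr3:37341501-37362000, with 74.0 and 59.6 RPM in the Young cultures, 46.2 and 42.6 in the Old cultures and 56.1 and 63.8 with acetate. Both Old cultures were the lowest. The Old mean was 66.4% of the Young mean, the lowest ratio of the 10 genes, and the OldAcetate mean was 89.7% of it. Scaled, the values were -0.23 ± 0.13 for Old against Young and 0.19 ± 0.13 for OldAcetate against Old (limma adjusted p = 0.898 and 0.872).

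The other regions of Fgf2 ran on through the gene. The start-site region held 2 of the 3 support level 1 starts of Fgf2, and the region 17.8 to 37.8 kb past the most upstream start also held a start of Fgf2. This further region had 71.1 and 57.6 RPM in the Young cultures, 46.2 and 49.7 in the Old cultures and 61.2 and 60.5 with acetate. Old lay below both other groups there, as in the start-site region. In the region 48.3 to 55.3 kb past the start the values were lower, with 20.1 and 19.6 RPM in the Young cultures, 13.9 and 16.7 in the Old cultures and 22.8 and 19.2 with acetate, in the same order. The region beyond the 3′ end of Fgf2 (chr3:37413501-37424000) holds the start sites of Nudt6 and Spata5 and is a member only through the 5 kb extension. It had 36.2 and 35.1 RPM in the Young cultures, 22.6 and 17.9 in the Old cultures and 27.6 and 36.7 with acetate, and Old again overlapped neither group. At -0.46 ± 0.18 for Old against Young it had the largest scaled fold change of the 18 regions in that comparison (limma adjusted p = 0.852).

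Fgf7, also known as keratinocyte growth factor and made by stromal cells, had its start-site region at chr2:126026001-126048500, with 69.1 and 61.7 RPM in the Young cultures, 51.3 and 45.3 in the Old cultures and 64.2 and 69.7 with acetate. The Old cultures lay below the other 4 here too. A further region of 29.5 kb lay within the gene and, like the start-site region, also overlapped the body of Fam227b. This inner region had 65.8 and 53.5 RPM in the Young cultures, 47.6 and 49.3 in the Old cultures and 47.4 and 48.4 with acetate. In that one OldAcetate overlapped Old, and both lay below Young. The scaled values for OldAcetate against Old were 0.23 ± 0.12 at the start site and -0.26 ± 0.13 in the inner region (limma adjusted p = 0.824 and 0.811), and the difference between them was not tested.

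**Figure D3:**
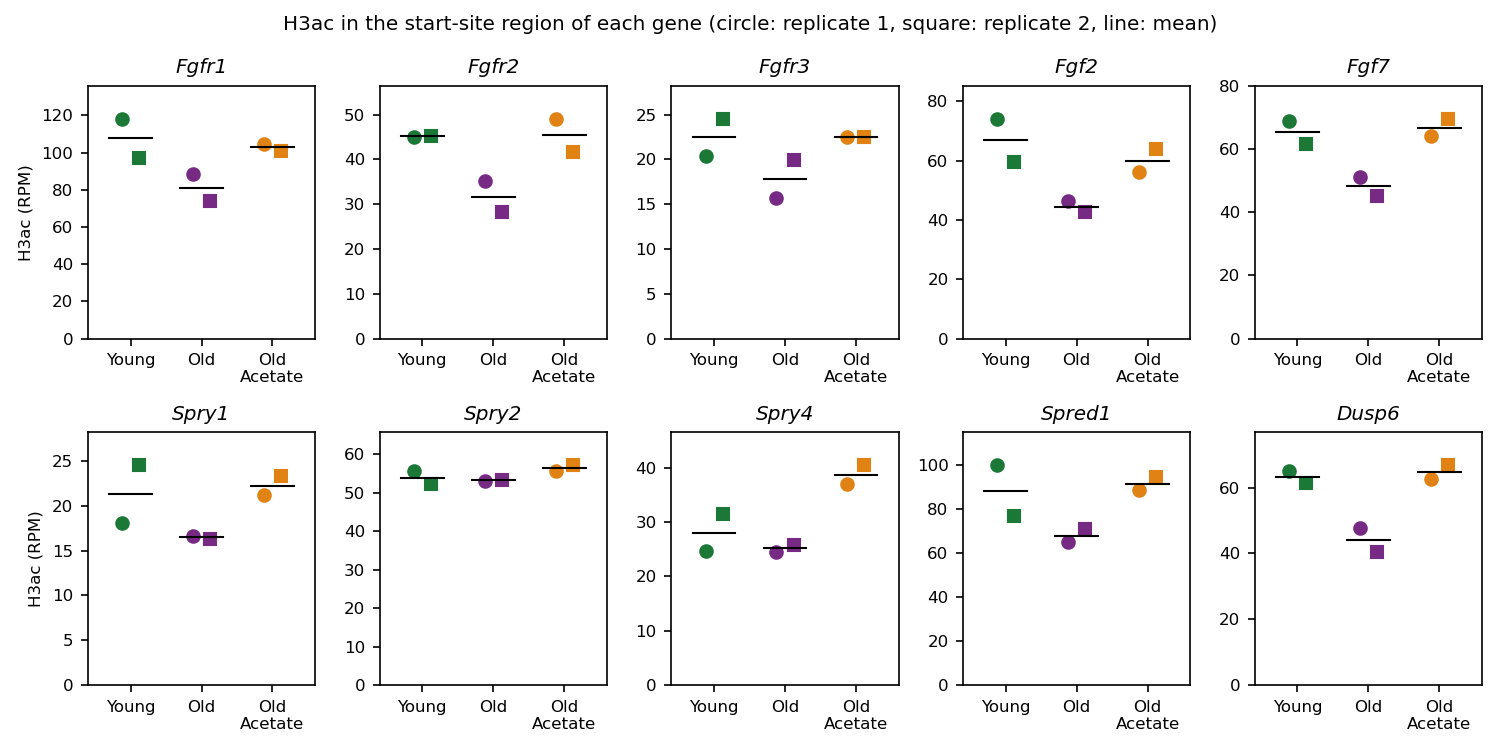
H3ac (RPM, y axis from 0) in the start-site region of each of 10 genes in Young, Old and OldAcetate cultures, with a circle for replicate 1, a square for replicate 2 and a line for the mean. Both Old points lie below both Young points in every panel except Spry2 and Spry4, and below both OldAcetate points in all 10.

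The feedback genes were less uniform. Spry2, whose product restrains signalling from receptor tyrosine kinases, had nearly the same level throughout (chr14:105889001-105900500), with 55.6 and 52.3 RPM in the Young cultures, 53.2 and 53.3 in the Old cultures and 55.8 and 57.1 with acetate. Young and Old overlapped, and the Old mean was 98.7% of the Young mean, the highest ratio of the 10 genes. Since most regions were lower in Old, the scaled log2 fold change was 0.33 ± 0.13 for Old against Young (limma adjusted p = 0.852) and -0.15 ± 0.13 for OldAcetate against Old. The direction at Spry2 in both comparisons thus depended on the scaling, as the log2 fold changes of values as given were -0.02 and 0.08.

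Spry4, a related Sprouty gene, was highest in the treated cultures (chr18:38593501-38604500), with 24.7 and 31.5 RPM in the Young cultures, 24.5 and 25.9 in the Old cultures and 37.0 and 40.5 with acetate. Both OldAcetate cultures lay above the other 4, while Young and Old overlapped. The OldAcetate mean was 154% of the Old mean and 138% of the Young mean. Scaled, this was 0.37 ± 0.18 against Old (limma adjusted p = 0.778) and 0.58 ± 0.18 against Young (adjusted p = 0.964), the largest scaled fold change of the 18 regions in any comparison, which did not pass the threshold. Without the first Young culture the value against Young was 0.32, and without the second it was 0.83. Old against Young was 0.21 ± 0.18 scaled and -0.14 ± 0.19 with values as given.

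Spry1, the third Sprouty gene measured, had low values (chr3:37639001-37648000), with 18.1 and 24.5 RPM in the Young cultures, 16.6 and 16.3 in the Old cultures and 21.2 and 23.4 with acetate. Old lay below both groups, and the first Young culture exceeded the higher Old culture by little. The scaled values were 0.00 ± 0.21 and 0.18 ± 0.21 for Old against Young and OldAcetate against Old, within their SE.

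Spred1, an inhibitor of Ras activation, had the longest start-site region (chr2:117119001-117160500), with 99.7 and 76.8 RPM in the Young cultures, 64.7 and 70.8 in the Old cultures and 88.4 and 94.3 with acetate. Old was the lowest group and overlapped neither other group. The scaled log2 fold change was -0.02 ± 0.11 for Old against Young and 0.19 ± 0.11 for OldAcetate against Old (limma adjusted p = 0.846). Its inner region near the 3′ end held 21.7 and 18.0 RPM in the Young cultures, 17.6 and 16.3 in the Old cultures and 17.1 and 24.2 with acetate, so that Old lay below Young and OldAcetate overlapped both.

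Dusp6, whose transcription is a common readout of ERK activity, had its region at chr10:99259001-99271500, with 65.1 and 61.3 RPM in the Young cultures, 47.6 and 40.6 in the Old cultures and 62.5 and 66.7 with acetate. The Old cultures lay well below the other 4, and Young and OldAcetate overlapped. The Old mean was 69.8% of the Young mean and the OldAcetate mean 147% of the Old mean. After scaling these were -0.17 ± 0.13 (limma adjusted p = 0.927) and 0.31 ± 0.13 (adjusted p = 0.768).

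Over the 10 start-site regions, Old did not overlap Young and was lower in 8, the exceptions being Spry2 and Spry4. Over all regions this held for 60.2%, and for 79.4% of the 3663 start-site regions of coding genes that were 8 kb or longer, so that the members' 80% was close to that of start-site regions of like length. OldAcetate did not overlap Old and was higher in 10 of 10, beside 47.1% of all regions and 70.9% of those long start-site regions. OldAcetate exceeded Young without overlap in 2 (Spry2 and Spry4) and lay below it in 0, where the shares over all regions were 7.6% and 29.8%. At Spry2 this rested on 55.8 RPM in the lower OldAcetate culture against 55.6 RPM in the higher Young culture. That gap was smaller than the counting error, which was at least 7.69% there. The smallest p of an exact two-sided permutation test with 2 cultures a group is 0.333, so no single gene can pass it.

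Relative to all regions, the start-site regions mostly shared a direction in OldAcetate against Old. There 9 of the 10 start-site regions had a scaled log2 fold change above 0 (the exception was Spry2), where 50.3% of all regions and 6141 of the 10181 start-site regions of coding genes did, and 8 of 10 did not overlap, beside 16.7% of all regions and 23.3% of long start-site regions. Some of the 8 were barely apart. At Spred1 the lower OldAcetate culture had a scaled log2 value of 6.41, against 6.40 in the higher Old culture. At Fgfr1 these values were 6.63 and 6.60. Both gaps were smaller than the counting error, which was at least 5.28% there. The median change of the 10 was 0.19, against 0.05 over the start-site regions of all coding genes and 0.00 over all regions. Against Young, OldAcetate was likewise higher in 9 of 10 (the exception was Fgf2), beside 50.3% of all regions and 6148 of the 10181 start-site regions of coding genes. The median of the 10 was 0.14, against 0.05 over the start-site regions of all coding genes. Of the 10, 5 did not overlap, beside 17.7% of all regions. Spred1 was 1 of the 5, with a scaled log2 value of 6.41 in the lower OldAcetate culture against 6.40 in the higher Young culture. Both comparisons share the OldAcetate cultures. Old against Young was split, with 4 higher and 6 lower and a median of -0.04, where 49.2% of all regions were higher. No start-site region passed the threshold in these comparisons, and the medians carry no test. The 10 genes were chosen with earlier results of these data known, so that these counts and medians are a description only.

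**Figure D4:**
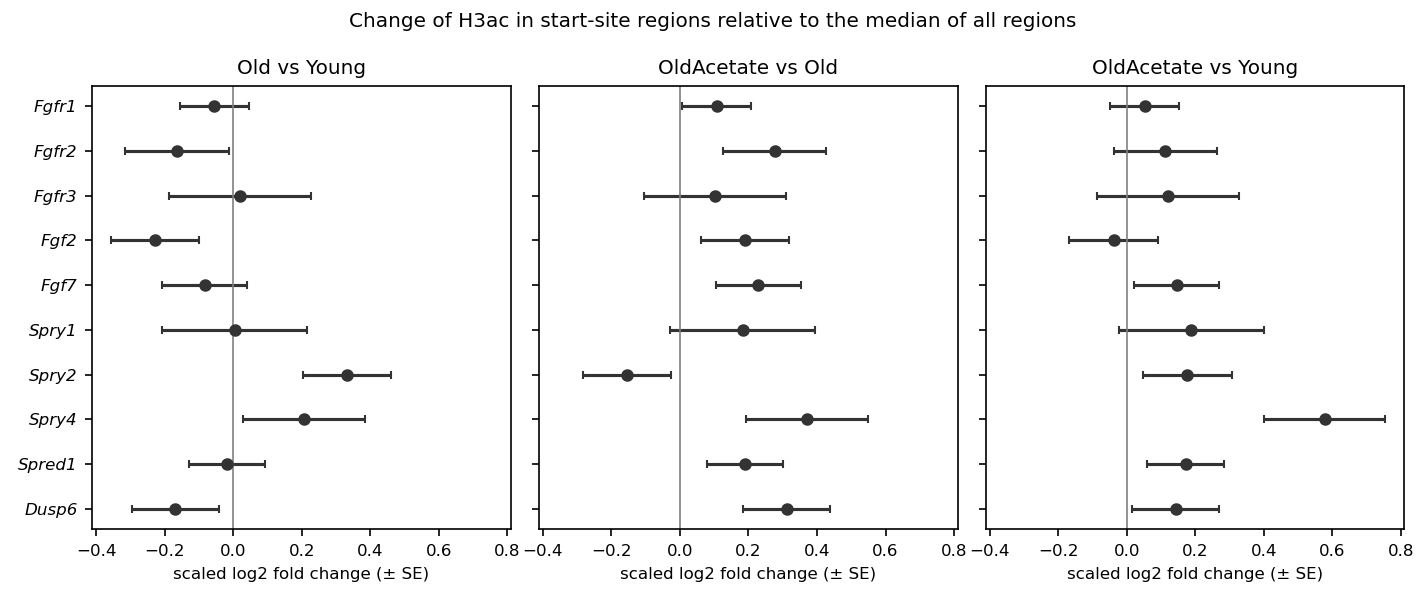
Scaled log2 fold change with its SE (limma, x axis) of H3ac in the start-site regions of 10 genes (y axis) in 3 comparisons, where 0 marks the median of all regions. In OldAcetate vs Old 9 of 10 points lie right of 0 and Spry2 (-0.15) lies left, and in OldAcetate vs Young Spry4 (0.58) lies farthest out.

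In the scaled test, limma with Benjamini-Hochberg adjustment over all 24431 regions called 0 of the 76 member regions in any comparison. The share called over all regions was 0.00819% for Old against Young and 0% for both others. At an unadjusted p under 0.05, 3 of the 18 regions passed in Old against Young, 3 in OldAcetate against Old and 1 in OldAcetate against Young, where 5.54%, 6.24% and 5.08% of all regions did. edgeR with TMM factors also called 0 members in each comparison, where it called 0.0246%, 0% and 0% of all regions.

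With values as given, which keep the shift shared by all regions, limma called 16 of the 76 regions and 5 of the 18 lower in Old than in Young, beside 9.5% of all regions. The 5 were the start-site regions of Fgf2 (log2 fold change -0.58, adjusted p = 0.0189), Dusp6 (-0.52, adjusted p = 0.0291), Fgfr1 (-0.40, adjusted p = 0.0420) and Fgfr2 (-0.51, adjusted p = 0.0458), and the region beyond Fgf2 (-0.81, adjusted p = 0.0118). Of long start-site regions, 21.9% were called lower in the same test, and edgeR on the reads without factors also called 16 of 76, beside 10.3% of all regions. These calls rested on single libraries, as did those of the whole table, since 0 of 76 were called without the first Young culture (0.0368% of all regions) and 1 without the second Old culture (2.03%), whereas 16 and 21 were called without the other Young and the other Old culture (8.74% and 13.3%). Adjusted over regions, 0 of 76 were called in OldAcetate against Old, beside 0.311% of all regions, the lowest adjusted p of a start-site region being 0.0782 at Dusp6, and 9 of the 18 passed an unadjusted p under 0.05, beside 18% of all regions. In OldAcetate against Young, 0 of 76 were called, beside 0% of all regions. Summed per gene and tested over 14155 coding genes, the values as given of Fgfr1, Fgfr2, Fgf2, Fgf7, Spred1 and Dusp6 were lower in Old than in Young, 6 of 10 beside 33.1% of all genes. The Fgfr2 sum was taken there over its 62 regions, and over its 4 regions of support level 1 it was not called (log2 fold change -0.30 ± 0.13, limma adjusted p = 0.0672), while the other 5 were. The sums as given of Fgf2, Spry4, Spred1 and Dusp6 were higher in OldAcetate than in Old, 4 of 10 beside 7.52% of all genes. The shares of 33.1% and 7.52% are over all genes, not over genes with start-site regions of like length. Of the 6, 1 (Fgfr2, over 62 regions) was called without the first Young culture (0.558% of all genes) and 1 (Fgf2) without the second Old culture (8.39%). Of the 4, Dusp6 alone was called without the first Old culture (4.66% of all genes) and none without any of the other 3 cultures compared (0% to 2.3%). Gene sums after scaling gave 0 calls among the 10 genes and 0% among all genes in each comparison.

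The 58 regions assigned to Fgfr2 only through its long transcript did not share the pattern of the start sites. Their median scaled log2 fold change was -0.02 for OldAcetate against Old, with 27 above 0 and 31 below, and 0.02 for Old against Young. The member regions with the lowest p in each comparison were all among them and were thinly covered. The first, chr7:130838001-130839000, over no other coding gene body, had 13 and 17 reads in the Young cultures, 1 and 3 in the Old cultures and 3 and 14 with acetate, and its scaled log2 fold change for Old against Young was -1.87 ± 0.59 (limma adjusted p = 0.737). The OldAcetate cultures overlapped both other groups there. The others were chr7:131345001-131348500, in the body of 2310057M21Rik, with 13.2 and 10.2 RPM in the Young cultures, 13.9 and 11.5 in the Old cultures and 10.4 and 7.5 with acetate, and chr7:132323501-132327000, with 7.9 and 3.3 RPM in the Young cultures, 6.9 and 6.4 in the Old cultures and 8.7 and 15.0 with acetate. Their scaled values were -0.73 ± 0.27 for OldAcetate against Old and 1.20 ± 0.35 for OldAcetate against Young (limma adjusted p = 0.734 and 0.871).

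Other genes of the pathway, 54 in number, were measured the same way through 73 regions. Of 16 further ligand genes 9 had a region and 3 (Fgf9, Fgf10 and Fgf18) one over a start site, whereas all 20 genes of adaptors and the ERK cascade and 13 of 14 targets and feedback genes did (Spry3 was not analysed here). Of the 4 further receptors and co-receptors, 3 had a region and 1, Fgfrl1, had one over a start site. The densest of them was Flrt2, a membrane protein that binds FGF receptors, at 6.58 RPM per kb, above Spry2 and Dusp6. After scaling, 0 of 73 regions were called in any comparison, and the medians were 0.02 for Old against Young and 0.02 for OldAcetate against Old, where the 18 member regions had -0.02 and 0.15. For Old against Young, the lowest p was at Frs3, an adaptor of FGF receptors (0.60 ± 0.24, limma adjusted p = 0.855). With values as given, 9 of 73 (12.3%) were called lower in Old than in Young, close to the 9.5% of all regions, and they belonged to Fgfrl1, Braf, Spred3, Dusp4, Gab1, Map2k2, Fos, Flrt2 and Dusp5.

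The genes whose scaled levels followed the mean of the 10 members most closely over the 6 libraries were Naa20 (Pearson r = 0.995), Stx1a (0.988) and Washc4 (0.987), out of 14145 coding genes searched, of which 75 reached an r over 0.9. With 6 points that share libraries and depth this is a description only.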

How the data were processed

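H3ac CUT&RUN libraries of 6 cultures were analysed, grouped by their titles. The authors deposited 1 table with a value per region and library. Its name speaks of RPKM, but the deposited values were treated as RPM. In each column 100% were whole multiples of the worth of 1 read (tolerance 0.01 reads), whatever the region length, and were turned back into reads. The read total of each library was inferred from that worth. The submitters' processing notes name Bowtie2, Picard and mm10. How regions were called and counted, and which reads the total of a library includes, is not given in the sources used here. Nor is it given whether the yeast DNA added at the stop step was used for scaling. All regions ended within the GRCm38.p6 chromosomes of the same names.

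The 10 members and all gene lists were chosen with earlier results of these data known. Gene bodies came from GENCODE M21, extended by 5 kb. Named were all members with their start-site regions, called member regions, the lowest p per comparison where none was called, and the 3 genes most alike. A pathway region that it also selects is not reported here. Differences were fitted with limma 3.58.1 (R 4.3.3) on log2(RPM + 0.5), which understates changes of low regions, after median scaling. One fit of group means over all 6 libraries used eBayes with trend and robust, Benjamini-Hochberg over all regions and a threshold of 0.05. The design had allowed for RPKM or RPM. Gene sums were fitted alike. As alternatives, the pseudocount was set to 0.1 or 1, scaling was omitted or replaced by quantile normalization, the lowest 25% of regions were dropped, and the fit was repeated with a replicate block, only the compared libraries, plain eBayes, edgeR 4.0.16 on reads, extensions of 0 and 20 kb, without each library and, chosen after seeing the data, with support level 1 bodies and without each library in the fit of values as given. Scripts were tested on simulated data. Start-site regions held 34 to 359 reads per library, a counting error of 5.28% to 17.1% that does not cover other sources. Same-numbered cultures did not deviate together (r of -0.04 to 0.01). With counting error in every region, this cannot show whether they shared mice or a batch, and the main fit did not pair them.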

Additional observations from a re-analysis of the deposited data

How the results depend on the processing

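Scaling decided the calls. After scaling, 0 of 76 member regions, 0 of 73 other pathway regions and 0 of 10 gene sums were called in every comparison and under every other alternative run, each planned omission of a library included. Without scaling, limma called 16, 9 and 6 for Old against Young, and 0, 0 and 4 for OldAcetate against Old, and edgeR without factors called 16, 10 and 6, and 0, 0 and 3. In the fit without scaling, omitting 1 library gave 0 to 21 called member regions for Old against Young (0.0368% to 13.3% of all regions) and 0 to 2 for OldAcetate against Old (0% to 1.81%). The Fgfr2 sum without scaling was not called for Old against Young with support level 1 bodies. The replicate block changed no call (0 member regions called in each comparison) and no fold change. Genes with 1 region have sums equal to that region and are not repeated.

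The median log2 fold change of the 76 regions was -0.0015, 0.051 and 0.011 for Old against Young, OldAcetate against Old and OldAcetate against Young. It became -0.35, 0.29 and -0.10 without scaling, -0.36, 0.30 and -0.11 with edgeR without factors, and -0.020, 0.15 and 0.14 with support level 1 bodies. With an extension of 20 kb it was 0.017 and 0.026 in the first pair of comparisons, and 0.028 for OldAcetate against Old without the lowest 25%. Omitting 1 library, its lowest and highest values were -0.044 and 0.028, -0.013 and 0.077, and -0.0072 and 0.041. Over the 10 start-site regions, OldAcetate against Old had 8 to 9 above 0 and a median of 0.13 to 0.26 on omitting 1 library.

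The log2 ratio of summed values as given over the 76 regions was -0.38, 0.27 and -0.11 in the same order, and with support level 1 bodies it was 0.36 for OldAcetate against Old and -0.013 for OldAcetate against Young. Median scaling gave -0.027, 0.029 and 0.0021, and quantile normalization -0.029, 0.025 and -0.0042. Omitting 1 library, it ranged from -0.47 to -0.29 for Old against Young and from -0.20 to -0.022 for OldAcetate against Young.

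Some directions turned, among them those of Spry2 (scaled 0.33) and Spry4 (0.21) for Old against Young. For Old against Young, without scaling and with edgeR without factors, start-site regions gave -0.35 and -0.35 at Spry1, -0.33 and -0.31 at Fgfr3, -0.018 and -0.022 at Spry2, and -0.14 and -0.14 at Spry4, and the Spred1 sum gave -0.34 and -0.36. Quantile normalization gave -0.012 at Spry1, -0.0027 at Fgfr3 and 0.00707 for the Fgf7 sum, and dropping the lowest 25% gave -0.000837 at Spry1. For OldAcetate against Old, the same pair of fits gave 0.084 and 0.084 at Spry2, 0.23 and 0.23 for the Fgfr2 sum, and 0.24 and 0.25 for the Fgf7 sum. For OldAcetate against Young they gave -0.059 and -0.070 at Fgfr1, and quantile normalization gave 0.030 for the Fgf2 sum. Support level 1 bodies gave the Fgfr2 sum 0.053, 0.035 and 0.088 in the 3 comparisons.

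Omitting 1 library turned the following values for Old against Young, given as ranges: Spred1 -0.14 to 0.11, Spry1 -0.29 to 0.30, Fgfr3 -0.21 to 0.25, Fgfr1 -0.12 to 0.011 and Spry4 -0.047 to 0.46 at the start sites, and -0.077 to 0.019, -0.051 to 0.029 and -0.091 to 0.12 for the sums of Fgfr2, Fgf7 and Spred1. For OldAcetate against Old it turned Fgfr3 (-0.12 to 0.33) and the sums of Fgfr2 (-0.10 to 0.00091) and Fgf7 (-0.10 to 0.033). For OldAcetate against Young it turned Fgf2 (-0.14 to 0.067), Spry1 (-0.11 to 0.48), Fgfr3 (-0.089 to 0.33), Fgfr1 (-0.0046 to 0.11) and the sums of Fgf2 (-0.10 to 0.055) and Fgf7 (-0.11 to 0.023). The causes were not tested. Read counts went down to 25 among the 18 regions and to 1 among the other 58, and each group had 2 cultures.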
